A study of Mus musculus with 3 samples.

Results

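Cytochrome P450 family 2 (Cyp2) genes were followed in kidney from 3 groups of female mice. The 44 members, of 19938 genes measured, were all genes whose symbol in the platform annotation begins with Cyp2, 1 letter and a digit; each was read by 1 probe set naming no other gene. The rule used the symbol and no measured value, but it was set with earlier results of these data known. Cyp2 genes encode heme enzymes of the endoplasmic reticulum that add 1 oxygen atom to a substrate with electrons from NADPH, and they handle drugs, steroids and fatty acids. In kidney the Cyp2c and Cyp2j enzymes are known for turning arachidonic acid into epoxyeicosatrienoic acids, which act on blood vessels and on tubular sodium transport, and many P450 enzymes of the kidney lie in the proximal tubule. Mouse Cyp2 genes stand in tandem clusters of near copies, so a probe set can also read a relative.

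Total RNA of kidney was read on Affymetrix Mouse Gene 1.0 ST arrays, 1 array per group, from mice of strain CBL/6 aged 8 to 10 weeks. The control group was non-treated. The NTS group had a single injection of sheep nephrotoxic serum, an antiserum against glomeruli, in a dose of 13.5 ug for each g of body weight. The NTS/PGE2 group had that serum followed by prostaglandin E2 (PGE2), a signalling lipid, at 5 ug per g daily from day 2, and kidneys of treated mice were taken on day 7. No vehicle injection is named for any group, and the labels do not say whether an array held RNA of 1 mouse or of several. With 1 array per group no difference has a replicate check and no p-value was computed. Precision is limited by this number of arrays.

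Values are log2 expression, so a difference of 1 is 2-fold. A gene passed the filter on dim genes in a comparison when its brighter value was at or above the median of all probe sets on the array it came from. That median was 7.11 for control, 7.11 for NTS and 7.14 for NTS/PGE2. A gene was counted as higher or lower at a difference of at least 1, which sets a size and tests nothing. As a gauge of technical spread, the difference read by 1 probe set had an SD of 0.19 for NTS minus control, 0.19 for NTS/PGE2 minus NTS and 0.12 for NTS/PGE2 minus control, taken from 450, 450 and 455 genes read by 2 bright probe sets. This SD leaves out the spread between animals and any technical spread that both probe sets of a gene share on an array.

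A set of 6 promoters is shown because their genes had different orders of values on the 3 arrays; Cyp2j11, Cyp2j6 and Cyp2j5 belong to the Cyp2j cluster, Cyp2s1 and Cyp2b10 are neighbours, and Cyp2d26 stands in the Cyp2d cluster. Cyp2d26, Cyp2j11 and Cyp2j5 were lower on the NTS array than on the other arrays, Cyp2j6 lies between Cyp2j11 and Cyp2j5 and read nearly alike on all 3, Cyp2s1 was highest on the NTS array, and its neighbour Cyp2b10 was lower on both serum arrays than on control. Each runs from 250 bases before the transcription start to 50 bases after it, 5′ to 3′ on the gene's strand, from RefSeq on GRCm38.p6. Capitals mark matches on either strand to 4 motifs. The TATA box was searched as TATAAA and the CCAAT box by its name. The half-site of nuclear receptors was searched as AGGTCA. The site of HNF4, a receptor of tubule and liver cells, was searched as CAAAGTCCA. Overlapping matches share their capitals.
Cyp2d26, chr15:82794196-82794495, minus strand: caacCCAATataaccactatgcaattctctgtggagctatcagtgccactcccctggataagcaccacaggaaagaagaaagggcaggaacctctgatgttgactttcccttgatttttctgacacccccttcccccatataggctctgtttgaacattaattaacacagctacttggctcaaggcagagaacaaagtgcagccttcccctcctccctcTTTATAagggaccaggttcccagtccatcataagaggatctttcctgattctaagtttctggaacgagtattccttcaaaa
Cyp2j11, chr4:96348631-96348930, minus strand: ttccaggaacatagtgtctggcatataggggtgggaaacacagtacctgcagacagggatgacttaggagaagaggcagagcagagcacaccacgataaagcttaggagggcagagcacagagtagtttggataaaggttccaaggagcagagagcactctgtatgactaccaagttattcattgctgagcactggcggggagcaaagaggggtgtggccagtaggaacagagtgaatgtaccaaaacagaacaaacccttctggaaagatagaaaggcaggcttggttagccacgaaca
Cyp2j6, chr4:96553602-96553901, minus strand: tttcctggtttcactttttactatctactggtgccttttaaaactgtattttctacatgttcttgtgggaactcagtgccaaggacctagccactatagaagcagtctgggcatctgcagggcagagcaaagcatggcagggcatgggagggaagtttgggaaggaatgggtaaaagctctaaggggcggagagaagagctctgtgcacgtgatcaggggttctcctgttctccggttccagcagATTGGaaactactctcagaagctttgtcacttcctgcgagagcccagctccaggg
Cyp2j5, chr4:96664070-96664369, minus strand: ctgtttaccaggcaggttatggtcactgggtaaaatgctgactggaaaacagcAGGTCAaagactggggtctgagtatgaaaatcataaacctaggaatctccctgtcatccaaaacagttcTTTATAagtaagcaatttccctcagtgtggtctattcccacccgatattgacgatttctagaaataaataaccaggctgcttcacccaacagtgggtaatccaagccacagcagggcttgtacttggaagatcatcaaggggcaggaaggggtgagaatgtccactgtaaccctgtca
Cyp2s1, chr7:25816476-25816775, minus strand: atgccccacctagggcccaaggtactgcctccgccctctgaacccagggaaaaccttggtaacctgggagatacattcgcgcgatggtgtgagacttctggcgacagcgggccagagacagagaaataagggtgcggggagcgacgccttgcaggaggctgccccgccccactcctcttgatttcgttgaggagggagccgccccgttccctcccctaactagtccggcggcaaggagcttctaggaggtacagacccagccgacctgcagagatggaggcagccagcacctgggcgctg
Cyp2b10, chr7:25897408-25897707, plus strand: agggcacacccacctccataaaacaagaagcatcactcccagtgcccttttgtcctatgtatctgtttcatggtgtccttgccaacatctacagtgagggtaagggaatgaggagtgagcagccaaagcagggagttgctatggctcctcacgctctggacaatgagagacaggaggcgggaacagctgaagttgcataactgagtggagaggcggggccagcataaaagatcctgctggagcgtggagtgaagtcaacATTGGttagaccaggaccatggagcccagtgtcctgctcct
Among these, Cyp2d26 held a TATA box on the minus strand with its first base 31 bases before the start and a CCAAT box at 246 bases. Cyp2j5 held a receptor half-site at 197 bases before the start and a TATA box on the minus strand at 128 bases. Cyp2j6 and Cyp2b10 each held only a CCAAT box, and Cyp2j11 and Cyp2s1 held none of the 4. The table held 37 promoters for 35 of the 44 members, and Cyp2c23, Cyp2c54, Cyp2d12, Cyp2d13, Cyp2d22, Cyp2d34, Cyp2d37-ps, Cyp2g1 and Cyp2u1 had no entry. The TATA box stood in 17 of the 37, or 45.9%, against 13.6% of all 32851 promoters of the same length. The receptor half-site stood in 11 (29.7%, against 16.3%) and the CCAAT box in 18 (48.6%, against 37.4%). The HNF4 site stood in 4 Cyp2c promoters (10.8%, against 0.475%). Their genes, Cyp2c65, Cyp2c67, Cyp2c68 and Cyp2c70, all read below the 25th percentile on all 3 arrays. Near copies share sequence and are not independent, and a match is not a bound site. In global alignments of the 300 bases, the 91 pairs of promoters within a subfamily had 169 to 298 identical bases, with a median of 188. The promoters of Cyp2d9 and Cyp2d11 had 267 identical bases, those of Cyp2d26 and Cyp2d9 had 186 and those of Cyp2j11 and Cyp2j5 had 182. Gaps were allowed and no pairs of unrelated promoters were aligned. How many identical bases such pairs would have was thus not measured, and the lower counts cannot be read as shared sequence.

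Most of the family was dim in kidney. Of the 44 members, 27 reached the median of no array, and 16 of these lay below the 25th percentile on all 3 arrays, which was 5.77 to 5.79. The median was reached on all 3 arrays by 12 of the 44 members, against 54.5% of all genes. The 12 members that reached the median on all 3 arrays were Cyp2c23, Cyp2d9, Cyp2d22, Cyp2d26, Cyp2d37-ps, Cyp2e1, Cyp2j5, Cyp2j6, Cyp2j9, Cyp2j11, Cyp2s1 and Cyp2u1. The other 5, Cyp2b10, Cyp2b23, Cyp2d12, Cyp2d40 and Cyp2f2, reached it on 1 or 2. All 3 values were exactly equal in 14 members (31.8%, against 29.1% of all genes); equal values are no evidence of an unchanged gene.

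**Figure D1:**
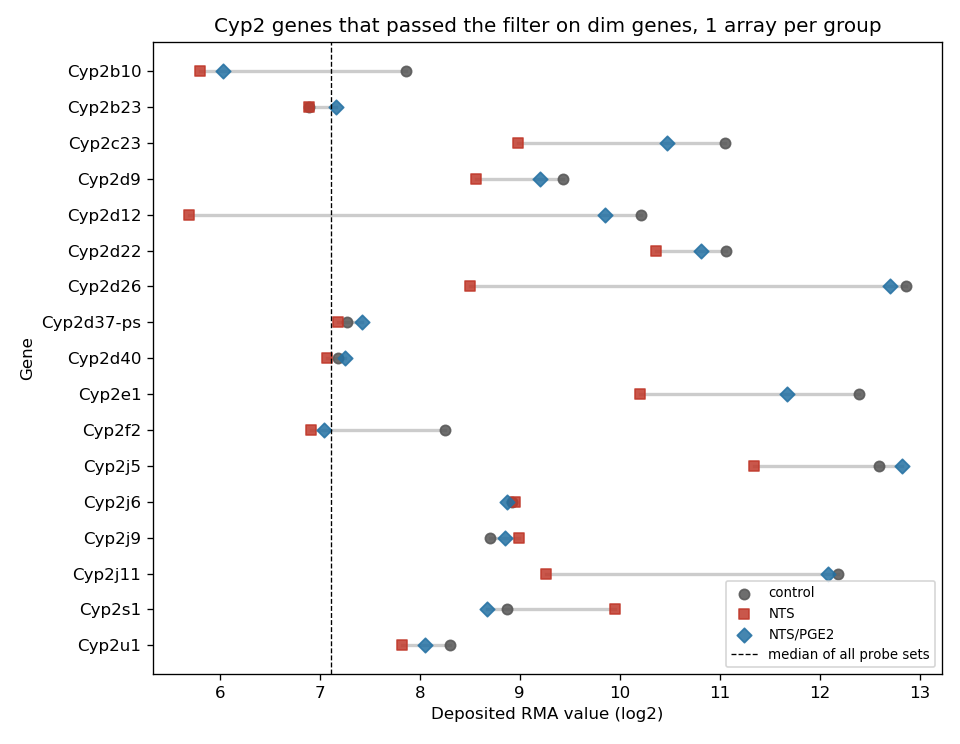
Deposited log2 values (x axis) of the 17 Cyp2 genes (y axis) that passed the filter in at least 1 comparison; the grey circle is the control array, the red square NTS and the blue diamond NTS/PGE2, with 1 array each and no error bar, and the dashed line is the median of all probe sets. The NTS square lies far to the left for Cyp2d12, Cyp2d26 and Cyp2j11 and to the right for Cyp2s1, and the control circle of Cyp2b23 lies under its NTS square.

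The first comparison, NTS minus control, asked which P450 transcripts differed in the nephritic kidney. On the NTS array 8 Cyp2 genes were lower than on control by 2-fold or more (Cyp2d12, Cyp2d26, Cyp2j11, Cyp2e1, Cyp2c23, Cyp2b10, Cyp2f2 and Cyp2j5) and 1, Cyp2s1, was higher by as much. Over all 44 members, with no filter, that is 18.2% lower and 2.27% higher, against 3.37% and 1.78% of all 19938 genes. With the filter 16 members remained and the counts stayed at 8 and 1, against 5.42% lower and 2.7% higher among 11778 genes. Cyp2b10, Cyp2d12, Cyp2d40 and Cyp2f2 passed only through their control value. The median difference over all 44 members was 0, as over all genes, since 17 members had equal values on these 2 arrays, 21 read lower and 6 higher on the NTS array.

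The second comparison, NTS/PGE2 minus NTS, asked how the transcripts stood after daily PGE2. On the NTS/PGE2 array 6 members were higher than on NTS by 2-fold or more (Cyp2d26, Cyp2d12, Cyp2j11, Cyp2c23, Cyp2j5 and Cyp2e1) and Cyp2s1 was at least 2-fold lower. That is 13.6% and 2.27% of the 44, against 2.56% and 2.1% of all genes. With the filter 15 members remained, with the same 6 and 1, against 4.15% higher and 3.28% lower among 11699 genes; Cyp2b23, Cyp2d12 and Cyp2d40 passed only through their NTS/PGE2 value. The median over all 44 was 0.0047, and 0 over all genes; with each array centred on its own median the former was -0.02.

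The third comparison, NTS/PGE2 minus control, looked for what remained different. Cyp2b10 and Cyp2f2 were at least 2-fold lower and 0 members at least 2-fold higher. That is 4.55% of the 44 lower, against 0.421% of all genes, with 0.0351% of all genes higher. With the filter 17 members remained, again with 2 lower and 0 higher, against 0.659% lower and 0.0607% higher among 11534 genes; Cyp2b10 and Cyp2f2 passed only through control and Cyp2b23 only through NTS/PGE2. The median over the 44 members was 0. The comparisons share arrays pairwise, so they are not independent of each other.

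**Figure D2:**
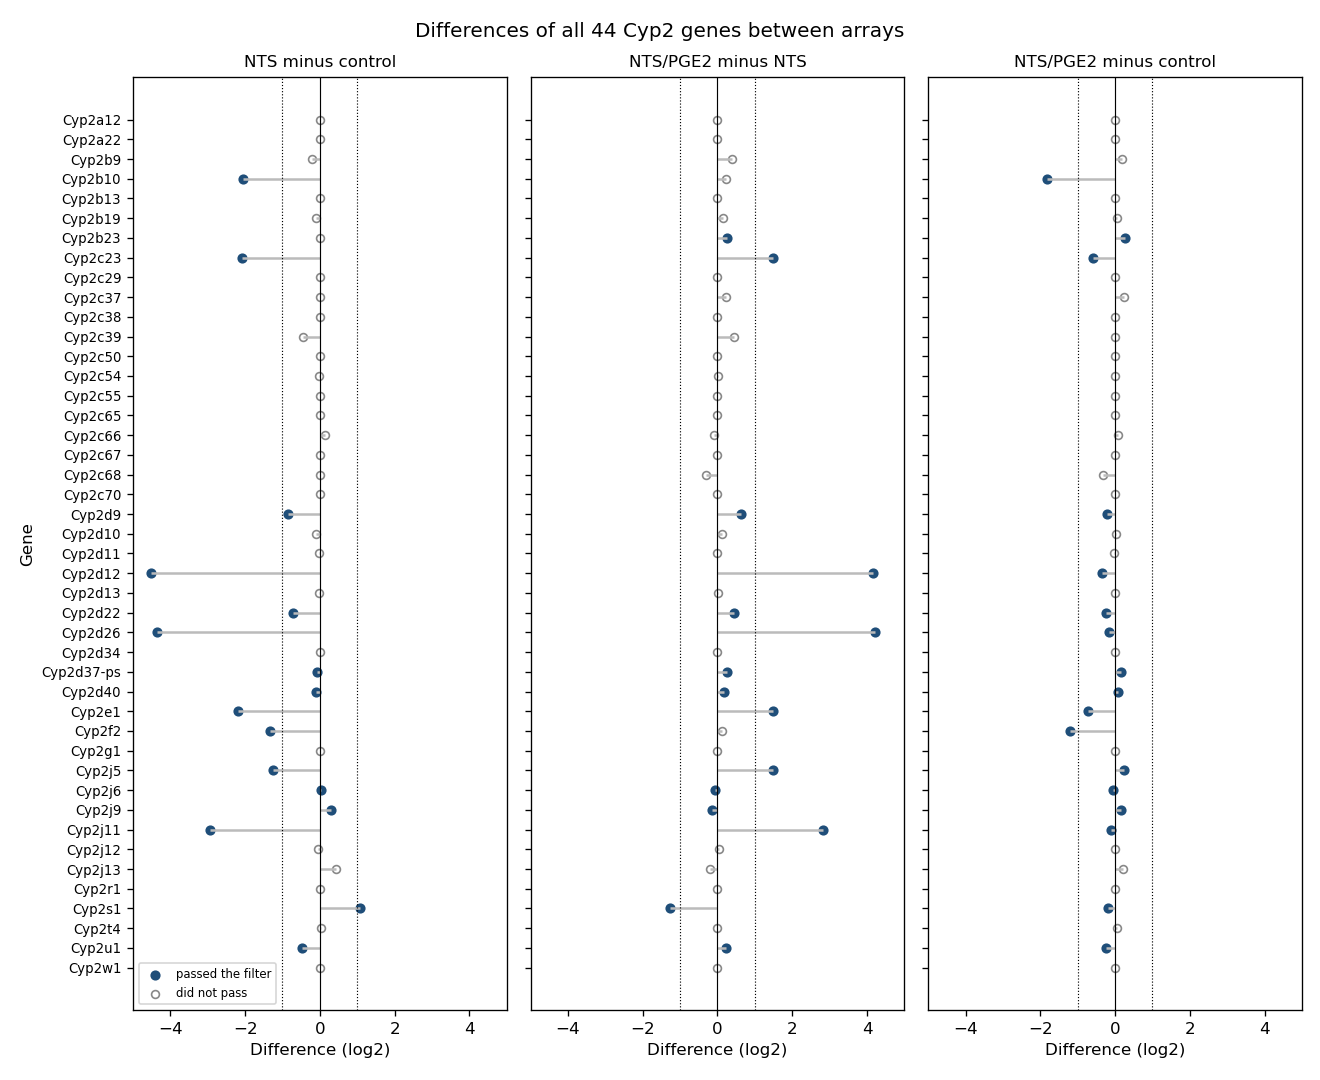
Log2 differences (x axis) of all 44 Cyp2 genes (y axis) in the 3 comparisons, with 1 array per group; filled points passed the filter on dim genes, open points did not, and dotted lines mark 2-fold. Cyp2d12 and Cyp2d26 stand beyond -4 on the left panel and beyond 4 on the middle panel, while only Cyp2b10 and Cyp2f2 lie past 2-fold on the right panel.

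**Figure D3:**
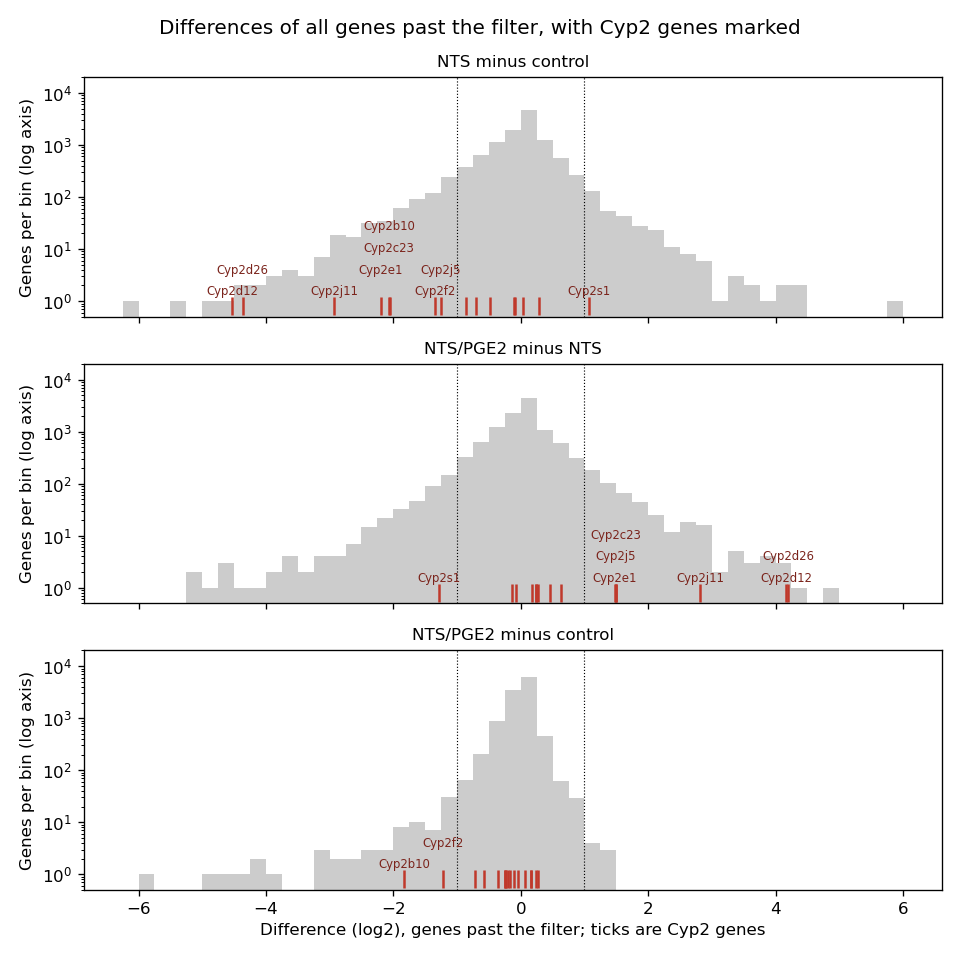
Counts of genes past the filter (y axis, log scale) in bins of log2 difference (x axis) for the 3 comparisons; red ticks are Cyp2 genes, those past 2-fold (dotted lines) are named, and heights of the names have no meaning. In NTS minus control Cyp2d12 and Cyp2d26 lie at -4.53 and -4.36, in the far left tail of 11778 genes.

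The Cyp2d subfamily, which in other species includes enzymes that oxidise many basic drugs, held the 2 widest differences of the family in NTS minus control and in NTS/PGE2 minus NTS. Cyp2d12 read 10.22 on control, 5.69 on NTS and 9.85 on NTS/PGE2. The NTS value was under the 25th percentile of that array, so the 23.0-fold difference from control is set against a value that may be background. Cyp2d26 read 12.86, 8.50 and 12.70, which is 20.6-fold lower on the NTS array than on control and 18.4-fold higher on NTS/PGE2 than on NTS. Its NTS value was above 71.1% of the probe sets on that array. For NTS/PGE2 minus control the differences were -0.36 for Cyp2d12 and -0.16 for Cyp2d26, beside a technical SD of 0.12.

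Other Cyp2d members differed less. Cyp2d9, a steroid hydroxylase known from male liver, read 9.43, 8.57 and 9.20 on the control, NTS and NTS/PGE2 arrays. Cyp2d22 read 11.07, 10.36 and 10.81. Their NTS values were the lowest of the 3, with differences from control of -0.86 and -0.70; these were the members nearest to the 2-fold rule among those that missed it on the lower side. The remaining 6 Cyp2d members (Cyp2d10, Cyp2d11, Cyp2d13, Cyp2d34, Cyp2d37-ps and Cyp2d40) read at most 7.43 on any array and differed from control on the NTS array by 0 to -0.11. Cyp2d37-ps is a pseudogene by its name. Since Cyp2d genes are near copies, each of these values may hold signal from a relative.

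In the Cyp2j subfamily, whose members include arachidonic acid epoxygenases, the genes parted. Cyp2j11, listed in earlier annotation as a pseudogene, read 12.19 on control, 9.26 on NTS and 12.08 on NTS/PGE2. It was 7.60-fold lower on NTS than on control and 7.06-fold higher on NTS/PGE2 than on NTS. Cyp2j5, an epoxygenase known from the proximal tubule, read 12.60, 11.34 and 12.83. Its differences were -1.26 for NTS minus control and 1.49 for NTS/PGE2 minus NTS, so the size was smaller than in Cyp2j11 but both genes were lowest on the NTS array. Cyp2j6 read 8.92, 8.96 and 8.88, a range smaller than the technical SD of 0.19. Cyp2j9 read 8.70, 8.99 and 8.86, with the NTS value the highest. The 2 dim members, Cyp2j12 and Cyp2j13, differed from control on the NTS array by -0.04 and 0.42.

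Of the Cyp2c genes only Cyp2c23, earlier named Cyp2c44 and known as an arachidonic acid epoxygenase of kidney, reached the median of any array. It read 11.05 on control, 8.98 on NTS and 10.47 on NTS/PGE2. It was 4.21-fold lower on NTS than on control and 2.82-fold higher on NTS/PGE2 than on NTS, and the NTS/PGE2 value lay between the other arrays, -0.58 from control. The other 12 Cyp2c members, several of them liver enzymes such as Cyp2c29 and the bile acid hydroxylase Cyp2c70, read from 2.62 to 6.88. Of these, 7 had equal values on all 3 arrays and the widest difference between NTS and control was -0.44, in Cyp2c39.

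Cyp2e1, which oxidises ethanol and other small molecules, read 12.39 on control, 10.20 on NTS and 11.67 on NTS/PGE2. The difference was -2.20 for NTS minus control, 1.47 for NTS/PGE2 minus NTS and -0.72 for NTS/PGE2 minus control. Cyp2e1 and Cyp2c23 thus had NTS/PGE2 values between the NTS and control values, each farther from control than those of Cyp2d12, Cyp2d26, Cyp2j11 and Cyp2j5.

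Cyp2b10 and Cyp2f2 had another order. Cyp2b10, a classic phenobarbital-inducible gene of liver and target of the receptor CAR, read 7.86 on control, 5.80 on NTS and 6.03 on NTS/PGE2. Cyp2f2, known from airway club cells, where it activates naphthalene, read 8.25, 6.91 and 7.04. For each gene the 2 serum arrays read nearly alike and the control array stood above them. For NTS/PGE2 minus control they differed by -1.83 and -1.21, and for NTS/PGE2 minus NTS by 0.23 and 0.13. On both serum arrays the 2 genes read below the median. Cyp2b10 was there above only 25.4% and 29.1% of the probe sets, and Cyp2f2 above 46.5% and 48.4%. Such values may hold background, so their likeness is no evidence that PGE2 left the genes unchanged. Markers of fat followed the same order: 9 of 10 adipose genes were at least 2-fold lower on each serum array than on control, and their summed linear level was 22168 on control, 1449 on NTS and 1935 on NTS/PGE2. Adipoq, which defines adipocytes, read 9.18 on control, and 4.70 on NTS and 4.88 on NTS/PGE2, below the 25th percentile of those arrays. Of 8 urothelium markers 4 were at least 2-fold lower on NTS than on control and 3 on NTS/PGE2, with summed levels of 2888, 926 and 853. The part of either tissue in the Cyp2b10, Cyp2f2 or Cyp2e1 values was not tested. The other 4 Cyp2b members differed between NTS and control by 0 to -0.21.

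Cyp2s1, a P450 of epithelia outside the liver, was the 1 member that exceeded its control value by 2-fold or more on the NTS array. It read 8.87 on control, 9.95 on NTS and 8.67 on NTS/PGE2. The differences were 1.08 for NTS minus control, just inside the 2-fold rule, and -1.28 for NTS/PGE2 minus NTS. The control and NTS/PGE2 values were 0.20 apart, beside a technical SD of 0.12 for that comparison. Cyp2u1, a fatty acid hydroxylase, read 8.31, 7.82 and 8.05. Cyp2r1, which adds a hydroxyl group to vitamin D in the first step of its activation, read 6.51 on all 3 arrays, below each median, a value that 41 probe sets shared exactly on the control array. The remaining members were dim. On all 3 arrays Cyp2a12 read 5.02, Cyp2g1 5.52 and Cyp2w1 6.67, and Cyp2a22 also had equal values. Cyp2t4 read 5.20 on control and 5.24 on both NTS and NTS/PGE2.

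The position of the genes was set beside their differences, with the order taken from the GRCm38.p6 annotation, since the build behind the probe sets is not given in the sources used here. Chromosome 15 held the 10 Cyp2d genes, chromosome 4 the 6 Cyp2j genes, chromosome 7 a cluster of 11 Cyp2a, Cyp2b, Cyp2f, Cyp2g, Cyp2s and Cyp2t genes and chromosome 19 a cluster of 12 Cyp2c genes, with Cyp2c23 apart from it. Genes with large differences stood beside genes with small ones, some of them dim. Cyp2d34, at 5.65 on all 3 arrays, and Cyp2j12, at most 5.78, reached the median of no array, and Cyp2d40 lay near it. A small difference in a dim gene is no evidence of an unchanged gene. Cyp2d12 (-4.53 for NTS minus control) lay between Cyp2d9 (-0.86) and Cyp2d34 (0), and Cyp2d26 (-4.36) lay at the end of the cluster beside Cyp2d40 (-0.11). Cyp2j11 (-2.93) lay between Cyp2j12 (-0.04) and Cyp2j6 (0.03). At the edge of the chromosome 7 cluster Cyp2s1 (1.08) lay next to Cyp2b10 (-2.06), which differed in the opposite direction. The 2 nearest measured protein-coding genes on each side of the 4 clusters, 16 genes outside the family, differed by -0.75 to 0.52 for NTS minus control. Beside the Cyp2d cluster the flanking genes were Ndufa6, Smdt1, Tcf20 and Nfam1, with differences from -0.25 to 0.16.

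**Figure D4:**
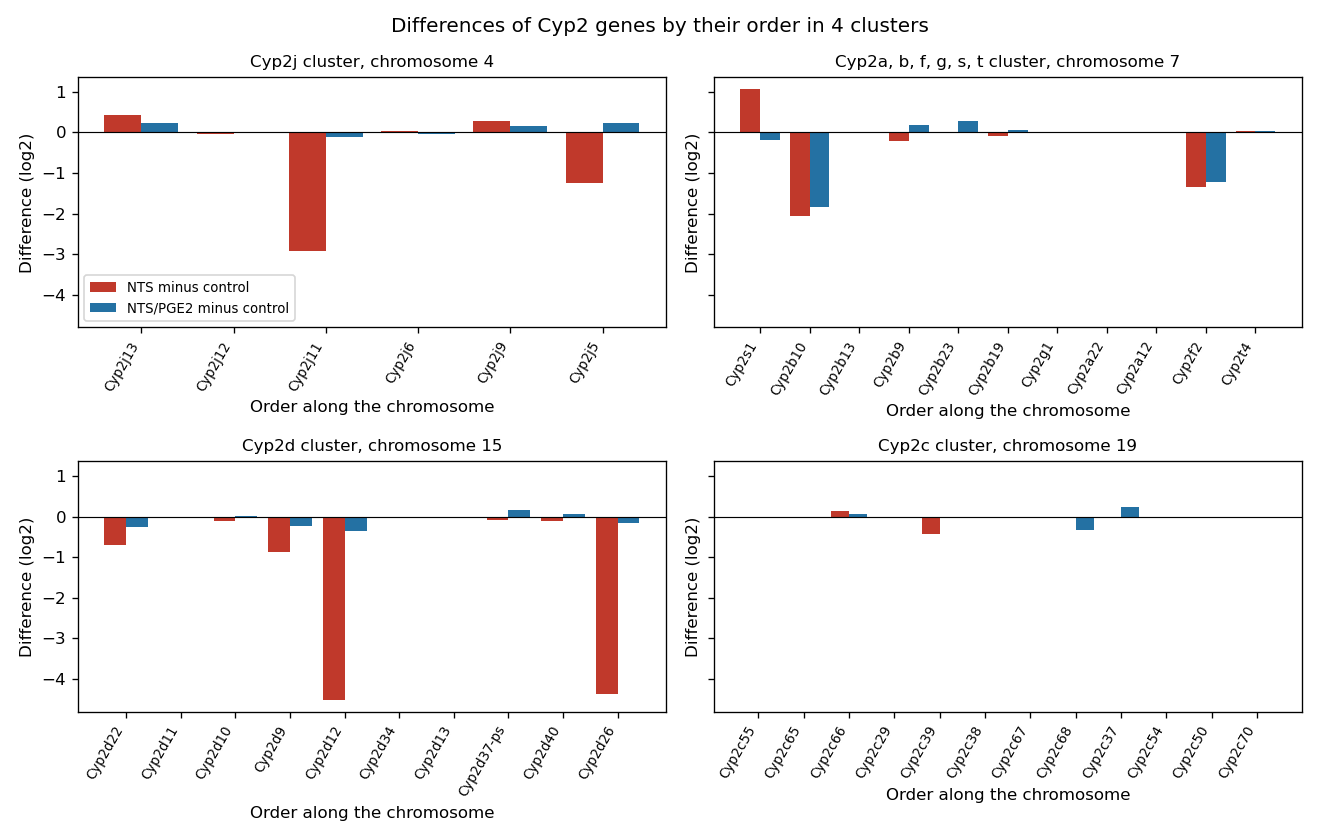
Log2 differences from control (y axis) of Cyp2 genes in their order along the chromosome (x axis) for 4 clusters; red bars are NTS and blue bars NTS/PGE2, 1 array each, and a missing bar is a difference of 0. The long red bars of Cyp2d12, Cyp2d26 and Cyp2j11 stand among short ones, some of them of dim genes, and Cyp2b10 and Cyp2f2 alone have long blue bars.

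For NTS minus control, proximal tubule markers differed in the same direction as the 8 lower Cyp2 genes. Of these 8, Cyp2b10 and Cyp2f2 parted from the markers in the other comparisons. They were at least 2-fold lower on NTS/PGE2 than on control and differed little between NTS/PGE2 and NTS. Of 23 measured markers 16 were at least 2-fold lower on NTS than on control and 0 higher, with a median of -1.39. For NTS/PGE2 minus NTS 17 were at least 2-fold higher and 0 lower, with a median of 1.36, and minus control 0 differed 2-fold, with a median of 0.0064. Their summed linear level was 132245 on control, 60694 on NTS and 139453 on NTS/PGE2; Slc7a13 lay below the 25th percentile on all 3 arrays. In whole kidney RNA fewer cells of a type and less RNA per cell cannot be told apart. The part of the proximal tubule in the Cyp2 values was not tested. Tubular injury markers went the other way, with 9 of 12 at least 2-fold higher on NTS than on control and summed levels of 13290, 48017 and 9537. Hepatocyte markers, listed because many Cyp2 genes are liver genes, had 1 of 11 lower for NTS minus control and summed levels of 5426, 4562 and 6176. Endothelium markers had 5 of 8 lower, with summed levels of 12504, 4052 and 10840. Leukocyte markers had 2 of 7 higher and 1 lower, with 1599, 2276 and 1536. The higher were Cd68 at 2.23 and Itgam at 1.10, and the lower was Csf1r at -1.09. Without a size rule 2 of the 7 read higher on NTS than on control, 4 lower and 1 equal. The sums lean on Cd68, the brightest of them on NTS, which read 8.12, 10.34 and 7.58. Adrenal cortex markers, of which 0 of 7 passed the filter, had 501, 492 and 488.

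The counts of genes at least 2-fold different in the lists of P450 partners can be read beside the 3.37% of all genes lower and 1.78% higher for NTS minus control; lists this short cannot be told apart from those shares. Of 8 measured redox partners, which pass electrons to P450 enzymes or bind them, 0 differed 2-fold in any comparison. The widest differences for NTS minus control were in the cytochrome b5 gene Cyb5b, at -0.98, in the reductase gene Cyb5r3, at 0.53, and in Cyb5r4, at 0.27. Of 9 genes of heme synthesis 0 differed 2-fold, with a median of -0.13. Alas1, the rate-limiting enzyme, read 11.46, 11.75 and 11.71 on the control, NTS and NTS/PGE2 arrays, while Alad differed by -0.93 and Uros by -0.78 on NTS. In heme breakdown 1 of 4 genes was at least 2-fold higher on NTS, the heme oxygenase gene Hmox1, which read 8.62, 10.73 and 9.67. Of 7 genes of arachidonate release and epoxide hydrolysis 0 differed 2-fold. Ephx2, the soluble epoxide hydrolase that degrades epoxyeicosatrienoic acids, read 10.77, 10.72 and 10.48, and the phospholipase gene Pla2g4a, whose enzyme frees arachidonic acid, differed by -0.90 on NTS. Por was not analysed here.

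Among 20 measured regulators of P450 genes, 2 were at least 2-fold lower on NTS than on control and 0 higher. They were Hlf at -1.78 and Dbp at -1.50, 2 transcription factors of the PAR bZIP family that follow the circadian clock. Hlf read 10.35 on control, 8.57 on NTS and 9.80 on NTS/PGE2, and Dbp read 10.29, 8.79 and 9.74, so both NTS/PGE2 values lay between the other arrays. The next widest was Nr0b2, at -0.76. Tef, of the same family as Hlf and Dbp, differed by -0.48. The part of the hour of kidney collection in the values of these clock-linked genes was not tested. Hnf4a, a nuclear receptor of tubule and liver cells, read 12.12, 11.55 and 12.29. Nr1i2, the pregnane receptor PXR, read 7.84, 7.92 and 7.82, and Nr1i3, the receptor CAR, read 6.32, 6.32 and 6.40, below the median of each array.

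The 43 other P450 genes went both ways; they include Cyp2ab1, whose symbol has 2 letters after Cyp2 and so fell outside the rule, at 6.03 on control and NTS and 6.14 on NTS/PGE2. For NTS minus control 3 were at least 2-fold higher (6.98%, against 1.78% of all genes) and 1 lower (2.33%, against 3.37%). For NTS/PGE2 minus NTS 1 was higher (2.33%, against 2.56%) and 3 lower (6.98%, against 2.1%). The fatty acid hydroxylase genes Cyp4a12b and Cyp4a12a, near copies of each other, differed by 3.10 and 2.67 for NTS minus control, and Cyp27b1, which makes active vitamin D, by 2.98. The lowest were Cyp51, the sterol demethylase of cholesterol synthesis, at -2.43, then Cyp1b1 at -0.69 and Cyp27a1, a sterol hydroxylase, at -0.65. For NTS/PGE2 minus control 1 of the 43 was lower (2.33%, against 0.421% of all genes), Cyp27b1 at -1.80. For NTS minus control the 44 members thus held 8 lower and 1 higher and these 43 genes 1 lower and 3 higher; the difference between them was not tested.

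**Figure D5:**
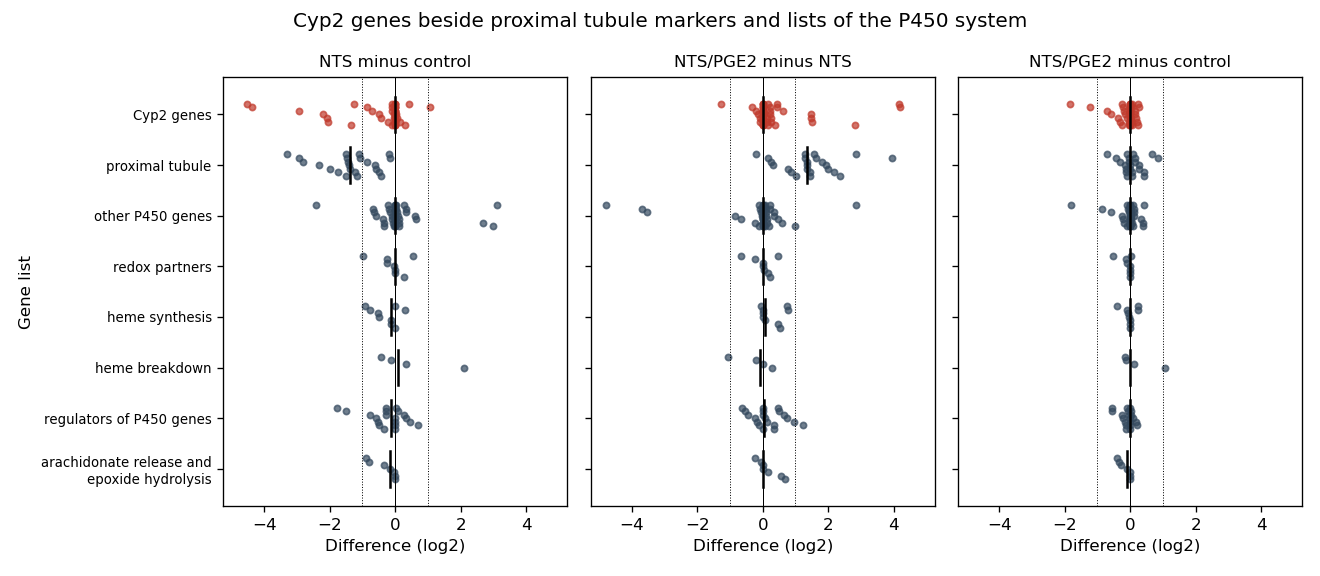
Log2 differences (x axis) of the Cyp2 genes, proximal tubule markers and 6 lists of the P450 system (y axis) for the 3 comparisons, 1 array per group; each point is a gene, points are spread vertically to separate them, the black bar is the list's median and dotted lines mark 2-fold. Proximal tubule markers have a median of -1.39 on the left panel and 1.36 on the middle panel. The medians of the Cyp2 genes and of the lists of the P450 system lie between -0.17 and 0.09 on every panel. The Cyp2 median covers all 44 members, of which 16 passed the filter for NTS minus control, against 22 of 23 markers. Past that filter 8 Cyp2 genes were at least 2-fold lower and 1 higher, and 16 markers lower and 0 higher. The other cell type markers are not drawn.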

How the data were processed

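Per the submitters' processing notes, the authors ran RMA in Affymetrix Expression Console, and the deposited values are on its log2 scale. The versions used and the genome build were not given in the sources used here. The method corrects background, makes the arrays' distributions equal and summarises a probe set's probes by median polish, which often gives equal values on 3 arrays and can understate small differences. No scanner values were used, so detection above background could not be read. Values were used as deposited. Some results are not reported here. Of 35556 probe sets, 21789 name 1 gene; these were averaged per gene to 19938 genes, and 2 probe sets that each name several Cyp2 genes were left out. All 44 members matched the GRCm38.p6 gene table and 0 symbols changed. With 1 array per group only differences of 2 arrays were formed, with Python 3.11.15 and pandas 2.3.3; the calculation was tested on simulated data. Members, lists, size rule and alternatives were chosen with earlier results of these data known. Values on every array are given for members past the filter and 2-fold different in a comparison, the subfamilies' brightest members and a few set by name; from each list up to 3 genes with the widest differences and some set by name.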

Additional observations from a re-analysis of the deposited data

How the results depend on the processing

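Without replicates no array could be left out. No paired analysis was possible because each group has 1 array. The alternatives were no filter or a 75th percentile filter on dim genes, size rules of 1.5-fold and of 1.5 on the log2 scale, the brightest probe set, median centring, quantile normalization, dim values raised to the 25th percentile, and no pseudogenes. At the 75th percentile filter 0 members were lower for NTS/PGE2 minus control, because Cyp2b10 and Cyp2f2 did not pass it. At a size rule of 1.5 on the log2 scale 0 members were higher for NTS minus control, 3 higher and 0 lower for NTS/PGE2 minus NTS and 1 lower for NTS/PGE2 minus control. The other 76 counts and medians, and all 405 differences of named members under these alternatives, moved by at most 1.5 times (counts) or by less than the technical SD (medians and differences). Of these, the median over the 44 members for NTS/PGE2 minus NTS changed sign, from 0.0047 to -0.02 with median centring. Filters, size rules and leaving out pseudogenes cannot change a named member's difference, nor can the brightest probe set, as each member has 1. Only median centring, quantile normalization and raised dim values could move those differences. Filters, size rules and the brightest probe set also cannot change a median over the members. Nor can the brightest probe set change a count of members. Leaving out pseudogenes removed only Cyp2d37-ps, which was 2-fold different in no comparison, so those counts could not change either. Leaving out members with near-identical proteins was not run, as no protein sequences were used here. Members below the 25th percentile may be background.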

Other observations

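One probe set annotated to 2 Cyp2 genes, and so left out of the members, read 11.38 on the control array, 10.23 on NTS and 11.59 on NTS/PGE2. Its differences were -1.15 for NTS minus control and 1.36 for NTS/PGE2 minus NTS. Another annotated to 4 Cyp2 genes read 5.87, 5.82 and 5.87. Exact values were often shared between genes. The control value of 22 of the 44 members was also the value of at least 1 other probe set on that array. Among all probe sets the share was smaller, at 37.1%. Cyp2d34 shared its value of 5.65 with 73 other probe sets. Among these 22 members, 4 lay above the array's median.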
